A study of Saccharomyces cerevisiae with 151 samples.

Results

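Gene expression was compared between the yeast double deletions gat1gcn4 and gat1leu3 at 30 min after 3-amino-1,2,4-triazole (3AT), with 3 arrays of each strain, or 6 of the 151 arrays of the series. The arrays were chosen by their labels alone. Both strains are Saccharomyces cerevisiae of the BY4741 background, a laboratory haploid that lacks functional HIS3, LEU2, MET17 and URA3. Both lack GAT1; one also lacks GCN4 and the other also lacks LEU3, so the comparison sets the loss of one activator of amino acid genes against the loss of another in cells without Gat1. Cells grew at 28 °C in SC medium to an OD600 of 0.5 and then received 100 mM 3AT. The RNA of each sample was hybridised to 1 Affymetrix yeast array. Further groups used here are the same strains at 0 min, before 3AT (2 arrays of gat1gcn4 and 3 of gat1leu3), and, at 30 min, the single deletions gcn4, leu3 and gat1, the double deletion gcn4leu3 and wild type, with 3 arrays each. The labels number the replicates but do not say that they came from separate cultures or clones, so the spread between arrays may be technical. The p-values below rest on a spread per gene pooled over 145 arrays of 7 strains, not on these 6 arrays alone. All differences are gat1gcn4 minus gat1leu3, so a positive value means a higher signal in gat1gcn4.

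Gcn4 is a basic leucine zipper activator whose translation rises when uncharged tRNA accumulates, and it turns on amino acid biosynthesis genes in many pathways. 3AT inhibits the histidine enzyme made by HIS3 and is commonly used to set off this response. Leu3 is a zinc cluster regulator of leucine and branched-chain amino acid genes that activates when the leucine precursor alpha-isopropylmalate is present and can repress when it is absent. Gat1 is a GATA factor that activates nitrogen catabolite repressed genes, the set that serves the use of poor nitrogen sources.

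Replicate 3 stood apart in both strains. Over all genes, Pearson's r between replicates 1 and 2 was 0.978 in gat1gcn4 and 0.987 in gat1leu3, whereas r between replicate 3 and the others was 0.937 to 0.946 and 0.933 to 0.937. The r between arrays of different strains ran from 0.892 to 0.951. Counts of called genes are therefore also given without replicate 3 of both strains, a choice made after seeing the data. All 6 arrays were deposited unscaled, with trimmed means of 57.4 to 78.02 in gat1gcn4 and 32.04 to 61.5 in gat1leu3, and were rescaled to a common trimmed mean of 500. Values below are these rescaled signals. Bulk arrays of equal total signal cannot tell less RNA per cell from RNA of fewer cells. The 7 a-specific mating genes summed to 22880 to 50610 in gat1gcn4 and 32780 to 47850 in gat1leu3, and the 4 alpha-specific genes, none listed at 0, to 126.8 to 210.2 and 164.9 to 198.0, so both strains carried the MATa pattern of BY4741.

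The deleted genes followed the labels. GCN4 gave 26.6, 15.02 and 12.9 in gat1gcn4 against 8073, 8816 and 6163 in gat1leu3 (log2 difference -7.82, SE 0.49, adjusted p = 8.94e-26). LEU3 gave 124, 189 and 73.8 in gat1gcn4 against 2.6, 2.13 and 14.1 in gat1leu3 (log2 difference 2.66, SE 0.36, adjusted p = 4.63e-08). The lowest 20 percent of signals on these arrays ended at 17.9 to 28.6, and apart from the first gat1gcn4 value of GCN4 every array of the strain lacking the gene was under its own array's limit, so no fold is given. GAT1 read 11.04 ± 5.6 (SD, n = 3) in gat1gcn4 and 8.59 ± 5.52 in gat1leu3, against 182 in wild type. The auxotrophic marker URA3 read 102, 43.4 and 230.2 in gat1gcn4 against 481, 389.9 and 331 in gat1leu3 (log2 difference -1.78, SE 0.50, adjusted p = 0.0197), while the 3 wild-type arrays ranged from 1.05 to 22.6. HIS3, whose product 3AT inhibits, read 1779 ± 218 and 2369 ± 171 (adjusted p = 0.516) although the background lacks a functional copy, and which part of the gene is probed is not given here. How the second gene was deleted is not given in the labels. The URA3 call was lost without gat1gcn4 replicates 1 or 2 or gat1leu3 replicates 1 or 2 (adjusted p up to 0.272).

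At 30 min, 281 of 5611 genes tested differed between the strains (5.01% called), with 216 higher (3.85%) and 65 lower (1.16%) in gat1gcn4 at an adjusted p under 0.05 by limma. At an unadjusted p under 0.05 the count was 1097. A fit of only the arrays of this comparison called 67 genes. Of the 281, 260 had 3 arrays of one strain entirely above the 3 of the other, which 25.9% of all tested genes also had. The median difference of all genes was 0.11 on the log2 scale, and the split of higher to lower calls turned on this shift: with each array centred on its median gene it was 110 higher and 108 lower, and with quantile normalization 105 and 86. Without replicate 3 of both strains 224 genes were called (3.99%; 153 higher, 2.73%, and 71 lower, 1.27%), of which 158 were among the 281. Leaving out 1 array at a time gave 60 calls without gat1gcn4 replicate 1, 74 without its replicate 2, 430 without its replicate 3, 169 without gat1leu3 replicate 2 and 138 without its replicate 3. 47 genes were called in all 6 of these fits.

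**Figure D1:**
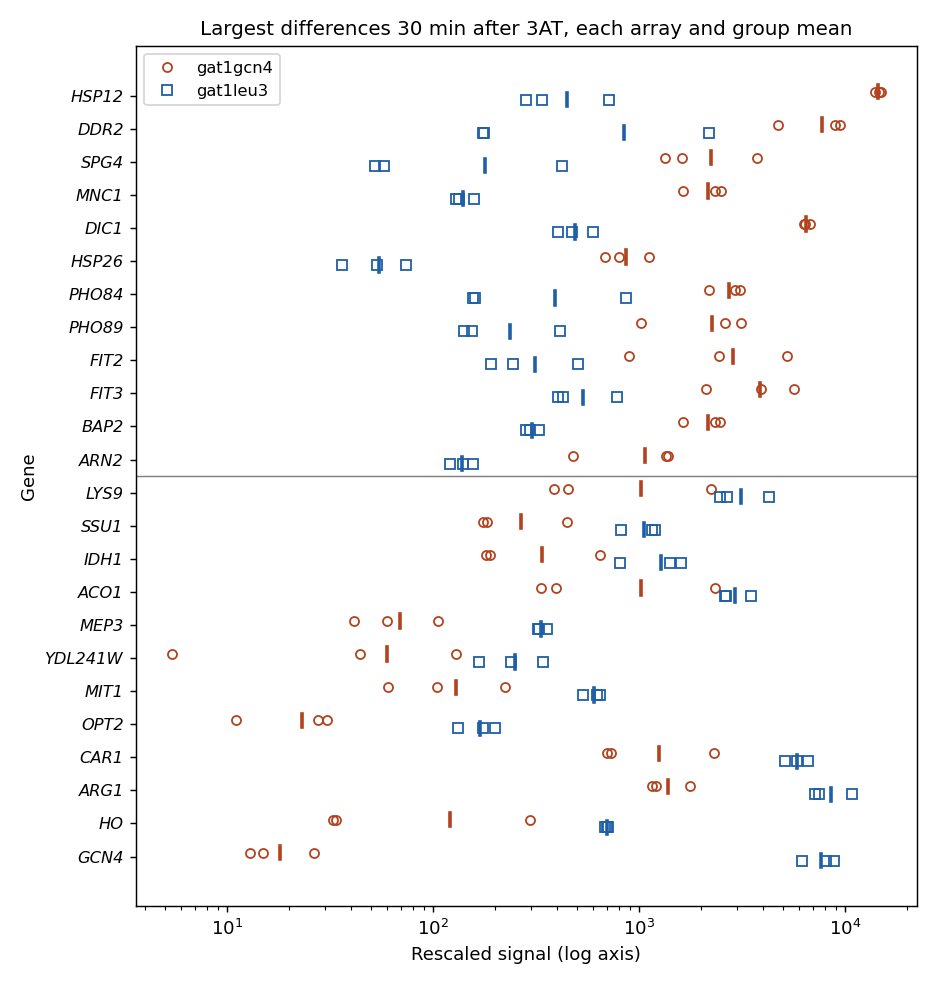
The 12 largest higher and 12 largest lower called genes whose arrays do not overlap, with the rescaled signal on a log axis, 1 open symbol per array (circles gat1gcn4, squares gat1leu3) and a bar at each group mean. GCN4 has the widest gap, with gat1gcn4 at 12.9 to 26.6, and HSP12 has the highest gat1gcn4 signals, at 13940 to 14968; below the grey line all genes are lower in gat1gcn4.

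Counts in this and the later lists stand beside 3.85% of all genes called higher and 1.16% called lower. Counts of genes above or below 0 stand beside 3302 of all 5611 genes above 0 and 2309 below. Of 7 arginine biosynthesis genes tested 3 were lower and 1 was higher in gat1gcn4, and of 6 histidine genes 2 were lower. ARG1, which encodes argininosuccinate synthetase, read 1215, 1161 and 1769.7 in gat1gcn4 against 7173, 7481 and 10879 in gat1leu3. Every gat1leu3 array was above every gat1gcn4 array, by 6.16-fold in the means (log2 difference -2.61, SE 0.36, adjusted p = 4.63e-08). ARG7, an ornithine acetyltransferase, read 386, 463 and 331 in gat1gcn4 against 1203, 1176 and 1379 in gat1leu3 (log2 difference -1.64, SE 0.41, adjusted p = 0.00782). ARG4, argininosuccinate lyase, read 1168, 1184 and 1702 in gat1gcn4 against 3106, 3351 and 3571 in gat1leu3 (log2 difference -1.32, SE 0.38, adjusted p = 0.0273). CPA1, the small subunit of the arginine-specific carbamoyl phosphate synthetase, went the other way and was 1.84-fold higher in gat1gcn4, with 4825, 5091 and 5283 in gat1gcn4 against 2500.1, 2307 and 3454 in gat1leu3 (log2 difference 0.90, SE 0.27, adjusted p = 0.0343). The median log2 difference of the 7 was -1.07, against 0.11 over all genes, and without replicate 3 of both strains 1 was lower and 0 higher. ARG3 and ARG8 had differences of -1.03 and -1.07 and ARG2 of 0.37, none past the threshold (adjusted p = 0.279, 0.178 and 0.673).

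In the histidine pathway all 6 genes had a difference below 0 (median -0.52). HIS4, which encodes an enzyme with several catalytic activities of the pathway, read 1713, 1722 and 3539 in gat1gcn4 against 4580, 6735 and 6434 in gat1leu3, with no overlap (log2 difference -1.41, SE 0.34, adjusted p = 0.00453). HIS5, histidinol-phosphate aminotransferase, read 436, 356 and 853 in gat1gcn4 against 1394, 1433 and 739 in gat1leu3, where replicate 3 of the 2 strains crossed (log2 difference -1.13, SE 0.33, adjusted p = 0.0265). HIS1, HIS2, HIS6 and HIS7 lay between -0.59 and -0.03 and did not pass. The call of ARG1 held in all 6 fits that left out 1 array, while ARG7 was lost without gat1gcn4 replicate 1 (adjusted p up to 0.0504), ARG4 without gat1gcn4 replicates 1 or 2 or gat1leu3 replicates 1, 2 or 3 (adjusted p up to 0.146), CPA1 without gat1gcn4 replicates 1, 2 or 3 or gat1leu3 replicates 1 or 2 (adjusted p up to 0.145), HIS4 without gat1gcn4 replicates 1 or 2 (adjusted p up to 0.0726) and HIS5 without gat1gcn4 replicates 1 or 2 or gat1leu3 replicates 1 or 2 (adjusted p up to 0.245). In the unscaled deposited values none of the arginine or histidine genes passed. There the arginine median was -0.37 and the histidine median 0.01, against 0.35 over all genes.

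Genes of vitamin B6, glutamine, aromatic and branched-chain metabolism were among the lower calls too. The neighbouring pair SNZ1 and SNO1, of vitamin B6 synthesis, was 3.54-fold and 3.12-fold lower. SNZ1 read 1404, 1649 and 3119 in gat1gcn4 against 6320, 6512 and 9023 in gat1leu3 (log2 difference -1.89, SE 0.38, adjusted p = 0.000448), and SNO1 read 196, 290.3 and 883 in gat1gcn4 against 1403, 1295 and 1575 in gat1leu3 (log2 difference -1.89, SE 0.41, adjusted p = 0.00164). Replicate 3 of gat1gcn4 was the highest of its group for both, and still below all gat1leu3 arrays. ILV6, the regulatory subunit of acetolactate synthase, read 1595, 2064 and 2854 in gat1gcn4 against 6162, 6505 and 8128 in gat1leu3 (log2 difference -1.70, SE 0.31, adjusted p = 8.42e-05). GLN1, glutamine synthetase, read 2109, 2387 and 4844 in gat1gcn4 against 9206, 9673 and 9664 in gat1leu3 (log2 difference -1.71, SE 0.35, adjusted p = 0.0007). Its gat1leu3 arrays lay close together and were 3.06-fold above gat1gcn4. ARO8, an aromatic aminotransferase, read 2534, 2031 and 3046 in gat1gcn4 against 5794, 5628 and 6040.2 in gat1leu3 (log2 difference -1.21, SE 0.26, adjusted p = 0.00103).

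By pathway, 3 of 10 genes of glutamate, glutamine, aspartate, asparagine and proline synthesis were lower and 0 higher (median -0.64): GLN1, the asparagine synthetase ASN1 (-1.50) and the aspartate aminotransferase AAT2 (-0.98). Of 15 aromatic genes 2 were lower, ARO8 and the tryptophan gene TRP3 (-0.98), and 13 had a difference below 0 (median -0.80). Of 9 lysine genes 1 was lower: LYS9, saccharopine dehydrogenase, read 386, 454 and 2233 in gat1gcn4 against 2673, 2462 and 4275 in gat1leu3 (log2 difference -2.02, SE 0.51, adjusted p = 0.00829), where gat1gcn4 replicate 3 was just below the lowest gat1leu3 array. The purine gene ADE17 (-1.18, 1 of 11), the pyrimidine gene URA2 (-1.001, 1 of 10), the aspartyl-tRNA synthetase DPS1 (-1.10, 1 of 19) and PCL5, the cyclin that serves in the turnover of Gcn4 (-1.50, 1 of 14 genes of Gcn4 feedback and partners), were also lower. Over all genes 5.01% were called in either direction, so these single calls are results about the genes, not about their lists. PCL5 read 909, 969 and 642 in gat1gcn4 against 2261, 1918 and 3078 in gat1leu3 and passed narrowly (adjusted p = 0.0494). TRP3 and PCL5 were lost whichever 1 array was left out (adjusted p up to 0.196 and 0.214), LYS9 without gat1gcn4 replicates 1 or 2 or gat1leu3 replicate 3 (adjusted p up to 0.14), ASN1 without gat1gcn4 replicate 1 or gat1leu3 replicate 3 (adjusted p up to 0.206), AAT2 without gat1gcn4 replicates 1 or 2 or gat1leu3 replicates 1 or 2 (adjusted p up to 0.152), SNO1 without gat1gcn4 replicate 1 (adjusted p up to 0.0861), ADE17 without gat1gcn4 replicates 1 or 2 or gat1leu3 replicates 1, 2 or 3 (adjusted p up to 0.251), URA2 without gat1gcn4 replicates 1 or 2 or gat1leu3 replicates 2 or 3 (adjusted p up to 0.256) and DPS1 without gat1gcn4 replicates 1 or 3 or gat1leu3 replicate 3 (adjusted p up to 0.123).

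Of 7 Leu3 target genes tested 3 were higher and 0 lower in gat1gcn4, and all 7 had a difference above 0 (median 0.67). OAC1, the mitochondrial carrier of oxaloacetate and alpha-isopropylmalate, read 7419.5, 8283 and 4506 in gat1gcn4 against 1643, 1409 and 874 in gat1leu3 (log2 difference 2.35, SE 0.30, adjusted p = 2.96e-09). BAT1, the mitochondrial branched-chain aminotransferase, read 5656, 4456 and 2922 in gat1gcn4 against 781, 650.3 and 673 in gat1leu3 (log2 difference 2.56, SE 0.37, adjusted p = 2.51e-07). LEU1, isopropylmalate isomerase, read 5055, 3944 and 2111 in gat1gcn4 against 446, 605 and 957 in gat1leu3 (log2 difference 2.42, SE 0.46, adjusted p = 0.000178). No array of one strain reached the other for any of these, and the means differed by 5.15, 6.19 and 5.53 times. ILV2, ILV5, LEU4 and GDH1, also Leu3 targets, had differences of 0.67, 0.45, 0.10 and 0.45 and did not pass (adjusted p = 0.468, 0.581, 0.943 and 0.532). The branched-chain pathway of 10 genes had LEU1 and BAT1 higher, ILV6 lower, with a median of 0.26. The cytosolic aminotransferase BAT2 read 2098, 3025 and 2157 in gat1gcn4 against 4828, 4923 and 2598 in gat1leu3 (log2 difference -0.72, SE 0.38, adjusted p = 0.292).

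DIC1, the mitochondrial dicarboxylate carrier, read 6359, 6775 and 6372 in gat1gcn4 against 474, 405 and 596 in gat1leu3. The groups were tight and 13.2-fold apart (log2 difference 3.70, SE 0.41, adjusted p = 3.21e-11). BAP2, a permease for leucine, isoleucine and valine, read 2345, 2479 and 1644 in gat1gcn4 against 329, 282 and 296 in gat1leu3, 7.14-fold apart (log2 difference 2.75, SE 0.44, adjusted p = 4.98e-06). Of 12 amino acid permeases outside nitrogen repression 2 were higher, BAP2 and the tryptophan permease TAT2 (0.79), and 0 lower. TAT2 was lost without gat1gcn4 replicates 2 or 3 or gat1leu3 replicates 1, 2 or 3 (adjusted p up to 0.168). OAC1, BAT1, LEU1, DIC1 and BAP2 were called in all 6 fits that left out 1 array.

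Of 23 nitrogen catabolite repressed genes tested 2 were lower and 0 higher in gat1gcn4 (median 0.10). Both strains lack Gat1, one activator of this set. CAR1, arginase, read 700.2, 731 and 2311 in gat1gcn4 against 5093, 5853 and 6581 in gat1leu3, a 4.68-fold difference (log2 difference -2.44, SE 0.36, adjusted p = 6.64e-07). MEP3, an ammonium permease, read 41.4, 59.6 and 106 in gat1gcn4 against 326, 324 and 356 in gat1leu3 (log2 difference -2.12, SE 0.44, adjusted p = 0.000715). Both were without overlap, and both calls held in all 6 fits that left out 1 array. The amino acid permeases AGP1 (-1.23, adjusted p = 0.0508) and GAP1 (-0.996, 0.377) did not pass, although their arrays did not overlap. The proline permease PUT4 read 286, 375 and 70.9 in gat1gcn4 against 31.1, 30.3 and 89.6 in gat1leu3, with gat1gcn4 replicate 3 and gat1leu3 replicate 3 crossing (log2 difference 1.83, SE 0.64, adjusted p = 0.0774). Without replicate 3 of both strains PUT4 was called, at 2.88 (adjusted p = 0.014). The allantoin genes DAL1, DAL2, DAL3, DAL4, DAL5 and DAL7 and the repressor DAL80 ran from -0.26 to 1.23, with every mean signal at or under 104. The remaining 11 genes, MEP1, MEP2, DUR3, PUT1, PUT2, UGA1, UGA4, GDH2, CAR2, GZF3 and CPS1, lay between -0.67 and 0.87, none past the threshold.

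**Figure D2:**
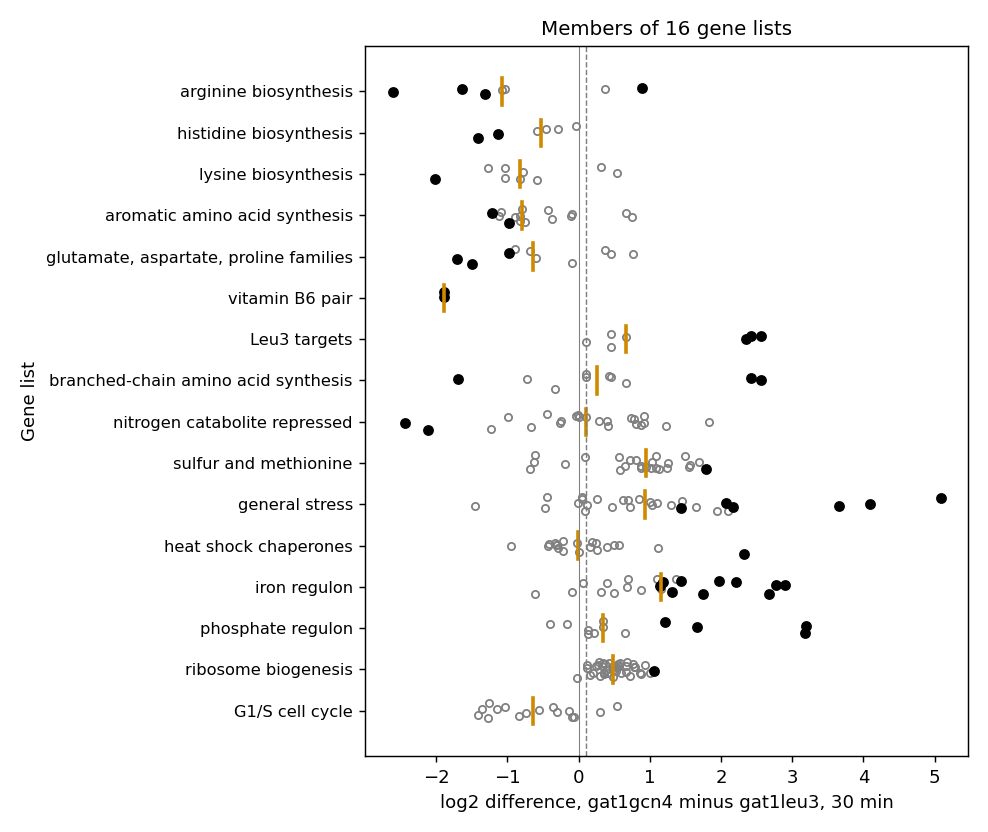
The log2 difference, gat1gcn4 minus gat1leu3, of each tested member of 16 gene lists at 30 min, with filled points for called genes, open points for the others, an orange bar at the list median and a dashed line at the median of all genes, 0.11. Iron, phosphate and Leu3 target calls lie right of 0, vitamin B6 calls at -1.89, and 39 of 40 ribosome biogenesis genes are above 0 with 1 called.

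Stress genes had the 2 largest positive differences. HSP12, a small membrane-associated stress protein, read 14968, 13940 and 14653 in gat1gcn4 against 282, 339 and 715 in gat1leu3. The groups were 32.6-fold apart (log2 difference 5.09, SE 0.82, adjusted p = 6.21e-06). DDR2, another multi-stress gene, read 9463, 8954 and 4738 in gat1gcn4 against 177, 175 and 2188 in gat1leu3 (log2 difference 4.09, SE 0.87, adjusted p = 0.00106), with gat1leu3 replicate 3 well above its fellows. HSP26, a small heat shock chaperone, read 801, 1119.8 and 683 in gat1gcn4 against 74.1, 53.5 and 36.1 in gat1leu3 (log2 difference 3.65, SE 0.41, adjusted p = 4.35e-11). Of 28 general stress genes 6 were higher and 0 lower, and 24 were above 0 (median 0.93). The others called were RTC3 (2.17), SPI1 (2.07) and ALD3 (1.43). SPG4, a gene of stationary phase survival, read 3728, 1618 and 1331 in gat1gcn4 against 52.4, 58.1 and 425 in gat1leu3 (log2 difference 3.95, SE 0.68, adjusted p = 2.82e-05), and MNC1, whose locus tag is YBR056W-A, read 2493, 2337 and 1634 in gat1gcn4 against 158, 129.7 and 133 in gat1leu3 (log2 difference 3.78, SE 0.38, adjusted p = 3.74e-13).

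The 20 heat shock chaperone genes had 1 higher and 0 lower call (median -0.01). The call was BTN2, which takes part in sorting misfolded proteins, with 1179.8, 1078 and 685 in gat1gcn4 against 157, 150.1 and 237 in gat1leu3 (log2 difference 2.33, SE 0.42, adjusted p = 9.16e-05). Among 20 oxidative stress genes, OYE3, an NADPH oxidoreductase, was higher (1.99, with overlapping arrays) and the peroxiredoxin TSA1 lower (-1.02). RPN4, the activator of proteasome genes, was higher (1.14), while none of the other proteasome genes on the list of 32 passed. ALD3 was lost whichever array was left out (adjusted p up to 0.13), RTC3 without gat1gcn4 replicates 1 or 2 or gat1leu3 replicates 1 or 2 (adjusted p up to 0.101), RPN4 without gat1gcn4 replicates 1 or 2 or gat1leu3 replicates 2 or 3 (adjusted p up to 0.274), and SPI1, OYE3 and TSA1 without gat1gcn4 replicates 1 or 2 or gat1leu3 replicate 3 (adjusted p up to 0.244, 0.127 and 0.127).

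Of 22 genes of the iron regulon, which cells turn on when iron is short, 10 were higher and 0 lower in gat1gcn4 (median 1.15), and without replicate 3 of both strains the count was also 10 and the median 1.30. FIT2 and FIT3, cell wall mannoproteins that hold siderophore iron, differed by 2.90 and 2.77. FIT2 read 5203, 2457 and 898 in gat1gcn4 against 244, 190.4 and 507 in gat1leu3 (adjusted p = 0.00946), so the gat1gcn4 arrays spread widely but stayed above gat1leu3. FIT3 read 5656, 3892 and 2107 in gat1gcn4 against 428, 406 and 778 in gat1leu3 (adjusted p = 0.00444). The siderophore transporters ARN2 and ARN1 read 1355, 1376 and 476 in gat1gcn4 against 156, 120.4 and 139.5 in gat1leu3 for ARN2 (log2 difference 2.67, SE 0.49, adjusted p = 9.28e-05) and 749.7, 960.1 and 298 in gat1gcn4 against 121, 91.00 and 146 in gat1leu3 for ARN1 (log2 difference 2.21, SE 0.46, adjusted p = 0.0007). In all 4 genes replicate 3 was the lowest gat1gcn4 array. The iron permease FTR1 read 2674, 2903 and 3105 in gat1gcn4 against 1307, 1332 and 1147 in gat1leu3 (log2 difference 1.19, SE 0.24, adjusted p = 0.000448), with tight groups. The heme oxygenase HMX1 (1.97), the scaffold protein ISU2 (1.74), the reductase FRE3 (1.44), the copper transporter CCC2 (1.32) and the vacuolar transporter FTH1 (1.15) made up the 10, named so that the count is complete.

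FTR1, ARN1 and ARN2 were called in all 6 fits that left out 1 array. FIT2 was lost without gat1gcn4 replicates 1 or 2 or gat1leu3 replicate 2 (adjusted p up to 0.138), FIT3 without gat1gcn4 replicate 1 (adjusted p up to 0.069), FTH1 without gat1gcn4 replicate 1 (adjusted p up to 0.053), CCC2 without gat1gcn4 replicates 1 or 2 (adjusted p up to 0.167), FRE3 without gat1gcn4 replicates 1 or 2 or gat1leu3 replicate 3 (adjusted p up to 0.296), ISU2 without gat1gcn4 replicates 1 or 2 or gat1leu3 replicates 2 or 3 (adjusted p up to 0.228) and HMX1 without gat1gcn4 replicates 1 or 2 or gat1leu3 replicates 1, 2 or 3 (adjusted p up to 0.184). The copper regulator MAC1 was also higher, with 415, 574 and 359.7 in gat1gcn4 against 228, 166 and 173 in gat1leu3 (log2 difference 1.17, SE 0.29, adjusted p = 0.00861), and it was the only call among 5 copper uptake genes tested. MAC1 was lost without gat1gcn4 replicate 2 (adjusted p up to 0.118).

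Part of the phosphate regulon was higher in gat1gcn4 (4 of 12 higher, 0 lower, median 0.34). PHO84, the high-affinity phosphate transporter, read 2191, 3084 and 2933 in gat1gcn4 against 157, 159 and 861 in gat1leu3 (log2 difference 3.19, SE 0.59, adjusted p = 9.74e-05). PHO89, a sodium-phosphate transporter, read 2603, 3123 and 1026 in gat1gcn4 against 154, 141 and 412 in gat1leu3 (log2 difference 3.18, SE 0.63, adjusted p = 0.000422). In both, replicate 3 of gat1leu3 was above the other 2 arrays of its group. SPL2, a regulator of low-affinity phosphate transport, read 153, 72.8 and 83.1 in gat1gcn4 against 12.9, 13.3 and 38.8 in gat1leu3 (log2 difference 1.67, SE 0.37, adjusted p = 0.00213). VTC3, a subunit of the vacuolar polyphosphate polymerase, read 643, 789 and 585 in gat1gcn4 against 263, 242 and 338 in gat1leu3 (log2 difference 1.22, SE 0.26, adjusted p = 0.00105). SPL2 was lost without gat1gcn4 replicate 1 (adjusted p up to 0.068), while PHO84, PHO89 and VTC3 kept their calls in all 6.

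The calls among sulfur and methionine genes depended on which arrays were used. Of 25 tested 21 were above 0 (median 0.95), and 1 was called: SAM3, the S-adenosylmethionine permease, with 999, 1162 and 667 in gat1gcn4 against 242, 237 and 291 in gat1leu3 (log2 difference 1.78, SE 0.33, adjusted p = 0.00014). Another probe set for SAM3 gave -0.71, and its 3 remaining ones 1.74 to 2.36. Without replicate 3 of both strains 9 of the 25 were higher and the median was 1.62. In MET3, ATP sulfurylase, singled out after its values were seen, the gat1gcn4 arrays read 664, 856 and 105 and the gat1leu3 arrays 104, 86.2 and 213, so the order of the strains in replicate 3 was opposite to that in replicates 1 and 2 (adjusted p = 0.111). The serine gene SER3, phosphoglycerate dehydrogenase, read 864, 1076 and 806 in gat1gcn4 against 137, 167 and 188 in gat1leu3 (log2 difference 2.37, SE 0.60, adjusted p = 0.00954), and its paralog SER33 read 847, 946 and 306 in gat1gcn4 against 333, 316 and 208 in gat1leu3 (log2 difference 1.12, SE 0.30, adjusted p = 0.0136), with the lowest gat1gcn4 array under 2 of the gat1leu3 arrays. They were the only calls among 10 serine, threonine and homoserine genes, whose median was -0.37. BIO2, biotin synthase, read 1384, 1902 and 1145 in gat1gcn4 against 887, 880.1 and 236 in gat1leu3 (adjusted p = 0.0335, 1 of 5 biotin genes), and ZPS1, a zinc-regulated cell wall protein, 3763, 3843 and 1279 in gat1gcn4 against 1084, 999.5 and 694 in gat1leu3 (adjusted p = 0.0341, 1 of 9 zinc genes). Over all genes 5.01% were called. SER3 was lost without gat1gcn4 replicates 1 or 2 (adjusted p up to 0.0692), SER33 without gat1gcn4 replicates 1 or 2 or gat1leu3 replicate 3 (adjusted p up to 0.215), BIO2 without gat1gcn4 replicates 1 or 2 or gat1leu3 replicate 3 (adjusted p up to 0.476) and ZPS1 without gat1gcn4 replicates 1 or 2 or gat1leu3 replicates 1, 2 or 3 (adjusted p up to 0.24).

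A set of genes of other functions completed the largest lower differences. ACO1, aconitase, read 335, 396 and 2342 in gat1gcn4 against 2638, 2615 and 3505 in gat1leu3 (log2 difference -2.06, SE 0.41, adjusted p = 0.000448), and IDH1, a subunit of isocitrate dehydrogenase, read 181, 189 and 648 in gat1gcn4 against 1603, 1417 and 811 in gat1leu3 (log2 difference -2.05, SE 0.41, adjusted p = 0.000404). These 2 early citric acid cycle enzymes were the calls among 7 retrograde response genes. In both, gat1gcn4 replicate 3 was highest of its group but under all gat1leu3 arrays. SSU1, a sulfite efflux pump, read 182, 174 and 448 in gat1gcn4 against 1159.9, 1202 and 822 in gat1leu3 (log2 difference -2.03, SE 0.46, adjusted p = 0.00229). HO, the mating-type switching endonuclease gene, read 33.8, 32.6 and 297 in gat1gcn4 against 700.1, 683 and 704 in gat1leu3 (log2 difference -2.96, SE 0.80, adjusted p = 0.0159). OPT2, an oligopeptide transporter family member, read 27.5, 11.02 and 30.7 in gat1gcn4 against 174, 199 and 132 in gat1leu3 (log2 difference -2.26, SE 0.52, adjusted p = 0.00274), and YDL241W, which has no gene name, read 44.3, 5.39 and 129 in gat1gcn4 against 239.6, 167 and 340.3 in gat1leu3 (log2 difference -2.16, SE 0.40, adjusted p = 9.74e-05). The gat1gcn4 signals of OPT2 were near the lowest 20 percent of signals, and those of YDL241W spread widely. MIT1, a regulator of pseudohyphal growth, read 105, 60.2 and 223 in gat1gcn4 against 627, 649 and 536 in gat1leu3 (log2 difference -2.25, SE 0.42, adjusted p = 0.000127). It lies 2 genes from GCN4 in the annotation's order, and the other tested genes within 3 places of GCN4, UBC8, GLC3 and YEA6, had differences of 0.06, 0.85 and 0.78 with none past the threshold. The 6 tested neighbours of LEU3 lay between -0.62 and 0.35, also with none past it.

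HO was lost without gat1gcn4 replicates 1 or 2 or gat1leu3 replicate 3 (adjusted p up to 0.159), OPT2 without gat1gcn4 replicate 2 (adjusted p up to 0.0515), YDL241W without gat1gcn4 replicate 2 (adjusted p up to 0.0518) and ACO1 without gat1gcn4 replicate 1 (adjusted p up to 0.0584). Lists related to growth are given beside the 5.01% called over all genes, a share that amounts to about 1 call in 20 genes. The 81 ribosomal protein genes had 0 calls, and the sign of their median turned with the scaling. It was -0.26 here, 0.02 with quantile normalization and 0.28 with no rescaling, against 0.11, 0.001 and 0.35 over all genes. Of 40 ribosome biogenesis genes 39 were above 0 (median 0.48) and 1, the RNA polymerase subunit RPC40 (1.06), was called, but lost without gat1gcn4 replicates 1 or 2 or gat1leu3 replicate 3 (adjusted p up to 0.216). Of 16 G1/S cell cycle genes 14 were below 0 (median -0.65) with 0 called here and 4 lower when arrays were centred on their median gene. Hexose transporter (9), glycolysis (16), citric acid cycle and respiration (32) and G2/M (11) genes had 0 calls. The called ACO1 and IDH1 were counted among the retrograde response genes and are not on the list of 32. ERG6, a late ergosterol enzyme, was the 1 call among 21 ergosterol genes (-1.12). ERG6 was lost without gat1gcn4 replicates 1 or 2 or gat1leu3 replicate 3 (adjusted p up to 0.12). The a-specific, alpha-specific, haploid-specific and sporulation lists had 0 calls.

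The strains also differed before 3AT, with 533 genes called at 0 min (9.5% called; 352 higher, 6.27%, and 181 lower, 3.23%). Arrays of different times may come from the same culture, which the labels do not say. The 2 gat1gcn4 arrays at 0 min differed on chromosomes X, XI and XII. Set against the 3 gat1gcn4 arrays at 10 min, replicate 3 had 14.1% of the 1098 genes of these chromosomes more than 1.5 log2 units lower, and replicate 1 had 0.0911%. On the other chromosomes, with 4345 genes, the shares were 0.829% and 0.276%. Against the 3 gat1leu3 arrays at 0 min the shares on chromosomes X, XI and XII were 13.8% for replicate 3 and 0.729% for replicate 1. At 30 min, against the rest of its group, gat1gcn4 replicate 2 had log2 medians of 0.310 on these chromosomes and 0.040 elsewhere. Replicate 3 of that group had -0.234 and -0.013, with 2.64% and 1.33% of genes more than 1.5 log2 units lower. In gat1leu3 30 min replicate 3, 9.03% of chromosome III genes were that far below, against 1.67% over all chromosomes but XIV. At 30 min 3.46% of the genes on X, XI and XII were called, against 5.5% elsewhere. Without replicate 3 of gat1gcn4 350 genes were called at 0 min (252 higher and 98 lower), and without replicate 1 it was 351, each leaving 1 array in that group with the spread taken from the other groups. Without gat1leu3 replicate 2 the count was 207. Of the 216 genes higher at 30 min, 206 (95.4%) had the same sign at 0 min (200 without gat1gcn4 replicate 3), and 76 were called there. Of the 65 lower, 59 (90.8%) had the same sign (57 without it), and 26 were called. Among all tested genes with a difference above 0 at 30 min 76.6% had the same sign at 0 min, and among those below 0 50.9%. A fit of the 0 min arrays alone, with 2 against 3, called 0 genes.

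By gene, ARG1 read 600.1 and 1376 in gat1gcn4 at 0 min, against 11610 to 16680 in gat1leu3 (difference -3.996). SNZ1 read 462.3 and 538.2, against 4465 to 8845 (-3.75). At 0 min 6 of the 7 arginine genes were lower and their median was -2.58, or -2.08 with 5 lower without gat1gcn4 replicate 3, compared with -1.07 and 3 lower at 30 min. DIC1, a gene of chromosome XII, was already apart at 0 min (8098 and 1357 against 398 to 554, difference 2.83), and so were HSP12 (3.95) and FIT2 (3.04). Without gat1gcn4 replicate 3 these differences were 4.11, 4.42 and 4.50. Of the 20 heat shock chaperone genes 7 were higher and 2 lower at 0 min (median 1.05), compared with 1 higher and 0 lower at 30 min. Without gat1gcn4 replicate 3 the 0 min median of this list was 1.81. Between gcn4 and leu3 at 30 min its median was -0.81, with 0 higher and 2 lower. BAT1 (0.65, adjusted p = 0.382), BAP2 (0.65, 0.494), CAR1 (-0.57, 0.451) and PHO84 (-0.27, 0.878) were not called at 0 min. In gat1leu3 the mean of BAP2 was 1155 at 0 min, 302 at 30 min and 215 at 60 min, while in gat1gcn4 it was 1899, 2156 and 2043. SNZ1 in gat1gcn4 had means of 500.2, 2057 and 2983 at these times.

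Whether the strain difference itself changed from 0 to 30 min was tested directly. 58 genes passed (1.03% called; 46 higher, 0.82%, and 12 lower, 0.214%; 561 at an unadjusted p under 0.05), among them SER3 (change 3.59, SE 0.91), PHO84 (3.46, SE 0.88), ARG4 (2.27, SE 0.58) and CPA1 (1.98, SE 0.41). 34 of the 58 lie on chromosomes X, XI and XII, where gat1gcn4 replicate 3 at 0 min had the low genes given above. The count depended on single arrays: it was 3 without that array, 179 without gat1gcn4 0 min replicate 1, 135, 27 and 231 without gat1leu3 0 min replicates 1, 2 and 3, 32 without gat1gcn4 30 min replicate 2 and 36 without gat1leu3 30 min replicate 1. Leaving out either gat1gcn4 0 min array leaves 1, which is assumed to vary like the other groups. Without replicate 3, SER3, PHO84, ARG4 and CPA1 did not pass, with changes of 4.18, 2.61, 2.13 and 1.80. The 3 genes that passed, singled out after their values were seen, were CIT2 (2.96), STI1 (-4.24) and YMC2 (2.29), and 2 of them were among the 58. CIT2 encodes peroxisomal citrate synthase and STI1 an Hsp90 cochaperone. A fit of the arrays of both times alone called 0 genes.

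**Figure D3:**
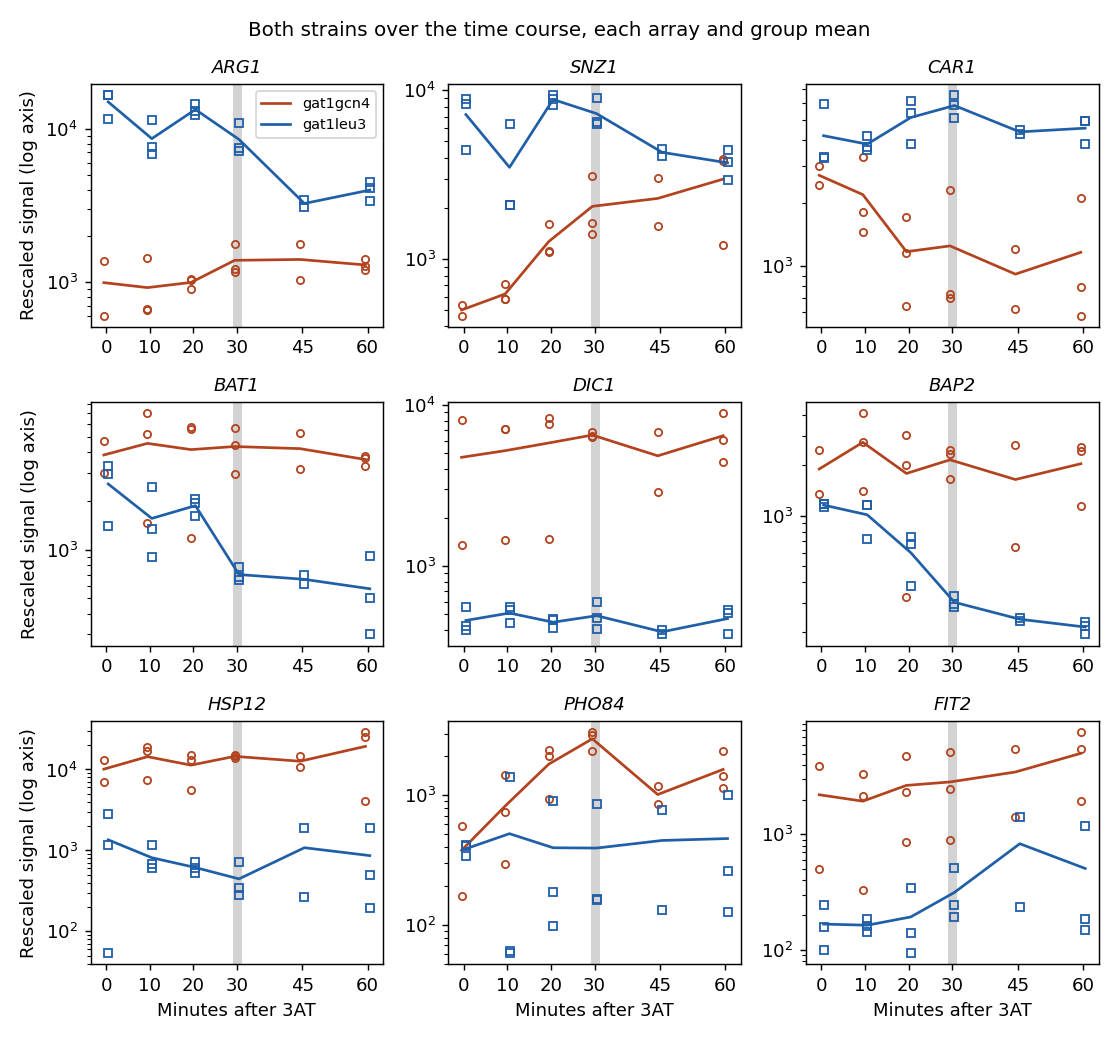
Rescaled signals (log axis) of 9 genes against minutes after 3AT, 1 symbol per array (circles gat1gcn4, squares gat1leu3) and lines through the group means, with 30 min shaded. ARG1, SNZ1 and CAR1 are lower in gat1gcn4 at 30 min and the other 6 genes higher; DIC1 stays at means of 389.9 to 510.3 in gat1leu3 throughout.

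The other strains at 30 min place these levels. OAC1 had means of 1139 in leu3, 1309 in gat1leu3 and 1381 in gcn4leu3, and of 3656 in gcn4, 5496 in wild type, 6736 in gat1gcn4 and 7308 in gat1. Every array without LEU3 was below every array with it. The same held for DIC1, with means of 491 to 692 in the strains without LEU3 and 2465 to 6502 in the others, and for BAT1, 426 to 802 against 2108 to 4510. BAP2, likewise without overlap, had means from 216 to 541 without LEU3 and from 1055 to 2156 with it. ARG1 was lowest in the double deletions that lack GCN4, 1382 in gat1gcn4 and 1922 in gcn4leu3, and overlapped between gcn4 (3146 to 5634) and leu3 (2192 to 7655). SNZ1 was lowest in gcn4 (1058), followed by gat1gcn4 (2057).

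HSP12 was high in the 3 strains that lack GCN4 (11990 to 17050), and lower in wild type (1455) and gat1 (1768). In leu3 its 3 arrays ran from 729.6 to 13990, so gat1leu3, at 446, lay below all 3 leu3 arrays. FIT2 was highest in wild type (4600) and gat1gcn4 (2852), with gat1, leu3 and gat1leu3 at 339, 318 and 314. PHO84 was highest in gat1gcn4 (2736), then gcn4leu3 (1709) and gat1 (1498), with the other strains between 392 and 557. The single deletions and wild type were in part deposited already scaled, and no test was made across these levels.

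**Figure D4:**
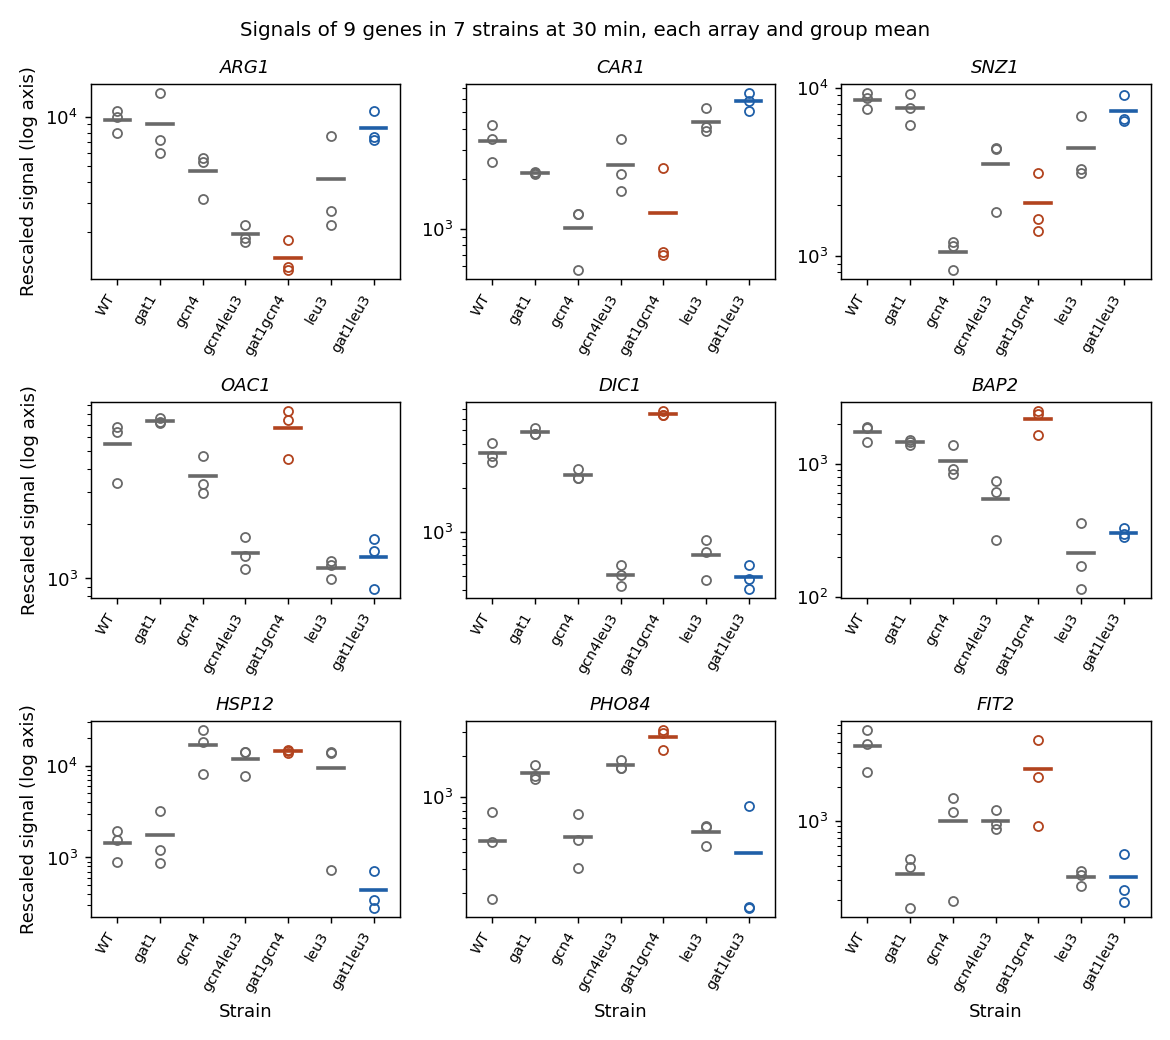
Rescaled signals (log axis) at 30 min in 7 strains for 9 genes, 1 open circle per array and a bar at the mean, with gat1gcn4 in red and gat1leu3 in blue. OAC1, DIC1 and BAP2 are low in the 3 strains without LEU3, while HSP12 is high in the 3 strains without GCN4 and spread in leu3 (729.6 to 13990).

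The same pair of factors was compared where GAT1 is present, in gcn4 and leu3 at 30 min, on other arrays. There 34 genes were called (0.606%; 18 higher, 0.321%, and 16 lower, 0.285%, in gcn4; 472 at an unadjusted p under 0.05). Of the 34, 31 had the same sign in the double deletions and 15 were called there, which is 44.1% of the 34 and 5.34% of the 281. These counts include the deleted genes GCN4 and LEU3, whose agreement was fixed by the genotypes. The shared calls also included CAR1 (-2.18), SNZ1 (-1.96), SNO1 (-2.09), OAC1 (1.65), DIC1 (1.85), BAP2 (2.32), BAT1 (1.39), CPA1 (1.47), MNC1 (1.75), HSP26 (1.69) and SAM3 (1.31). Over the 216 higher genes of the double deletions 152 (70.4%) had the same sign in the single deletions, against 53.1% of all tested genes above 0. Over the 65 lower it was 51 (78.5%), against 61.8% of all those below 0. ARG1 (0.35, adjusted p = 0.919), HSP12 (1.56, 0.622), PHO84 (-0.18, 0.991) and FIT2 (1.17, 0.748) were not called in the single deletions. By list, the arginine genes there had a median of 0.355 with 1 higher and 0 lower. The iron and phosphate lists had medians of 0.096 and -0.338 with 0 calls. Leu3 targets had a median of 0.591 with 2 higher and 0 lower. The median over all genes was -0.029. The 34 fell to 13 without gcn4 replicates 1 or 2, 16 without leu3 replicate 1 and 11 without leu3 replicate 2.

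The difference of these differences was tested for every gene, and 4 passed (0.0713% called; 515 at an unadjusted p under 0.05), with 0.0356% above and 0.0356% below 0. GCN4 itself was one, at -3.31: its signal in the gcn4 arrays was 159 to 366, above the 12.9 to 26.6 of gat1gcn4. ARG1 differed by -2.96 (SE 0.50, adjusted p = 0.000296), with means of 4700 in gcn4 and 4174 in leu3. BTN2 differed by 3.31 (SE 0.60, adjusted p = 0.000687), being lower in gcn4 (267) than in leu3 (558) without passing there. VTC3 differed by 1.88 (SE 0.37, adjusted p = 0.00238), with 230 in gcn4 and 374 in leu3. For the other genes named here a difference between the presence and absence of GAT1 was not shown: PHO84 (3.37, adjusted p = 0.0829) and ILV6 (-1.69, 0.0829) had the lowest adjusted p among the rest, together with SPL2 (2.09). The count was 38 without gat1gcn4 replicate 3 and 10 without leu3 replicate 3. The single and double deletions also differ in how their arrays were deposited, since replicates 1 and 2 of gcn4 and leu3 came scaled, and this cannot be told apart from the strains.

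**Figure D5:**
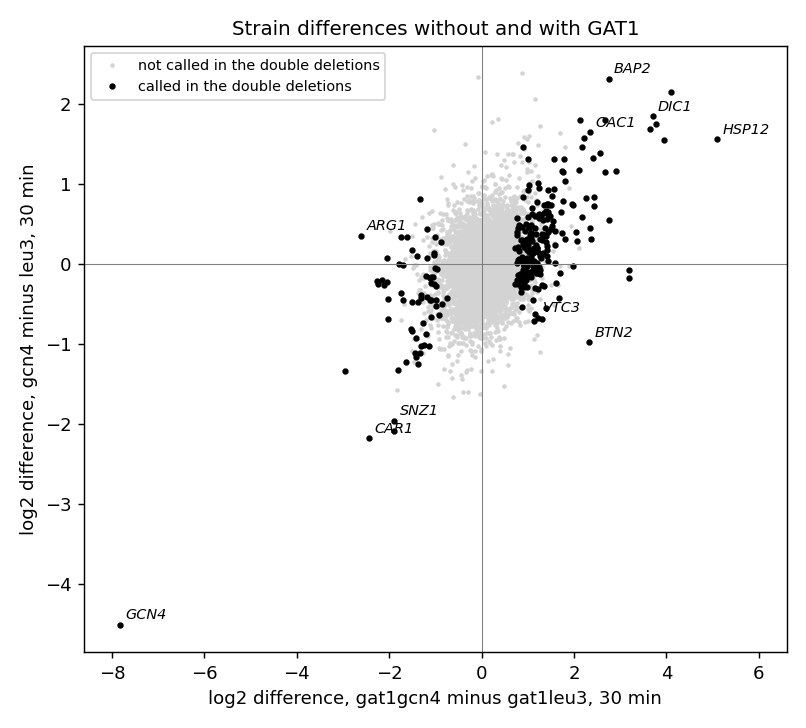
Each point is a gene, with its log2 difference gat1gcn4 minus gat1leu3 on the x axis and gcn4 minus leu3 on the y axis at 30 min (black, called in the double deletions; grey, not called). GCN4 lies lowest at the left; CAR1, SNZ1, DIC1, OAC1 and BAP2 lie away from 0 in the same direction on both axes, and ARG1 and BTN2 differ in sign between the axes.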

How the data were processed

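The RNA of each sample was measured on 1 Affymetrix yeast array, and the deposited values are MAS5 signal intensities, 1 per probe set, per the submitters' processing notes (program version not given in the sources used here). Of 151 arrays, 78 were deposited with a trimmed mean near 500 and 73 were not, so each array was rescaled to a 2% trimmed mean of 500, and log2(signal + 16) was used. Of 9335 probe sets 6504 named 1 gene through the platform annotation, 328 named several and 2503 none. They gave 5656 genes, with 315 genes on several probe sets represented by 1 of them, and 5611 were tested after a filter on low signal. A linear model with moderated variances (limma 3.58.1, R 4.3.3; eBayes, trend by mean signal) was fitted to the 145 arrays of 7 replicated strains in 50 groups, with 95 residual degrees of freedom and Benjamini-Hochberg adjustment over all 5611 genes at 0.05. A fold is a ratio of mean signals; a log2 difference includes the pseudocount and understates the change of dim genes. The number of arrays limits the precision (median SE of the difference 0.336 on the log2 scale). The script was tested on simulated data. No 2 arrays held identical values.

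Genes named in the text are the deleted genes and auxotrophic markers, the 12 largest higher and 12 largest lower calls whose arrays do not overlap, up to 4 called members of each gene list, and all members of the arginine, histidine, branched-chain, Leu3 target and nitrogen lists. Named outside this rule, after their values were seen, are the remaining called iron and general stress genes (FTR1, HMX1, ISU2, FRE3, CCC2, FTH1, SPI1 and ALD3), MET3, CIT2, STI1, YMC2 and the neighbours of GCN4. The genes and lists were chosen with earlier results of these data known. Alternatives changed the scaling, pseudocount, filter, trend, array weights, arrays in the fit, replicate block and each replicate in turn. Gene positions served only to find neighbours of the deleted genes and to count genes by chromosome. Promoter sequences were not used here.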

Additional observations from a re-analysis of the deposited data

Results flagged for a closer look

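The test of a change in the strain difference from 0 to 30 min passed for 58 genes, and among the named genes for PHO84 (a change of 3.46 on the log2 scale), SER3 (3.59), ARG4 (2.27) and CPA1 (1.98). Each was picked out because the difference at 30 min was not that at 0 min by a direct test. Without gat1gcn4 replicate 3 at 0 min the changes were 2.61 for PHO84 (adjusted p = 0.344), 4.18 for SER3 (0.0729), 2.13 for ARG4 (0.211) and 1.80 for CPA1 (0.0946), and 3 genes passed in all. That leaves 1 gat1gcn4 array at 0 min, assumed to vary like the other groups. In replicate 3, 14.1% of the genes of chromosomes X, XI and XII were far below the gat1gcn4 arrays at 10 min, against 0.0911% in replicate 1, and 3.1% of the tested genes of these chromosomes were among the 58, against 0.552% of those on the other chromosomes. The part of this pattern in the calls was not tested.

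The test of a difference between the strain contrast without GAT1 and the contrast with GAT1 passed for 4 genes. They were GCN4 (-3.31), ARG1 (-2.96), BTN2 (3.31) and VTC3 (1.88), in each case as the difference in the double deletions minus the difference in the single deletions at 30 min. For GCN4 the gap lies in the signal left in the strains labelled as lacking it, 159 to 366 in gcn4 and lower in every gat1gcn4 array.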

How the results depend on the processing

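The counts depended on how arrays were scaled and how the spread was estimated. With no rescaling the calls fell to 5 at 30 min, 1 at 0 min, 1 between gcn4 and leu3, 0 for the change from 0 to 30 min and 0 for the change with GAT1. With array quality weights they were 1827, 88, 242, 47 and 509. With only the arrays of the contrast in the fit they were 67, 0, 11, 0 and 2. With the double deletion arrays only they were 169 at 30 min, 316 at 0 min and 0 for the change over time; this setting has no value for contrasts that use single deletions. A pseudocount of 1 gave 107 genes for the change over time. With single arrays omitted in turn, calls ranged from 60 to 430 at 30 min, 207 to 767 at 0 min, 11 to 29 between gcn4 and leu3, 3 to 231 for the change over time and 3 to 38 for the change with GAT1. Where this left 1 array in a group, that array was assumed to vary like the other groups. The change over time fell to 27 without gat1leu3 0 min replicate 2 and 32 without gat1gcn4 30 min replicate 2, and rose to 179 without gat1gcn4 0 min replicate 1, 135 without gat1leu3 0 min replicate 1 and 231 without its replicate 3. The causes were not tested. Labels share replicate numbers, and same-numbered arrays of the strains had deviations from their group means correlated at 0.056, 0.07 and 0.134. The value for replicate 3, 0.134, was the highest of all pairs, while array 2 of gat1gcn4 correlated best with array 1 of gat1leu3 (0.11). Deviations within a group sum to 0, so these values cannot settle whether the numbers pair the arrays. With a replicate block the counts were 104, 0, 19, 0 and 2. Of the 71 called genes that the text names at 30 min, 5 stayed past the threshold with no rescaling, 46 with the replicate block, 66 with quantile normalization and 57 without replicate 3 of both strains, the setting chosen after seeing the data. Under the alternatives run at 30 min none of the 71 changed sign. The 71 were picked by their calls on the same arrays, which left little room for a change of sign, so this is no independent check. Low signals limit GAT1 in both strains, OPT2 in gat1gcn4, and DAL1 and DAL80, whose means are close to or under the lowest 20 percent of signals.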
